A study of Danio rerio with 20 samples.

Results

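The comparison described here set amacrine and horizontal cells against progenitors of the zebrafish (Danio rerio) retina at 42 hours post fertilization, using 10 of the 20 RNA-seq libraries of the study, 5 in each group. Its members were chosen by the sort labels of the libraries. All cells came from fish that carried Tg(ath5:gap-RFP) together with Tg(crx:gap-CFP) and also Tg(ptf1a:gal4,UAS:gap-YFP). All groups therefore shared the same 3 membrane reporters, named after atoh7 (ath5), crx and ptf1a. The amacrine and horizontal fraction was sorted as ath5+, crx-, ptf1a+, and the progenitor fraction as ath5-, crx-, ptf1a-. The remaining fractions, retinal ganglion cells (ath5+, crx-, ptf1a-) and photoreceptors (ath5+, crx+, ptf1a-), are used below only to place a level. Embryos of all groups were kept at 28 °C, then at 21 °C between 24 and 30 hours, then again at 28 °C, and MS-222, an anaesthetic, was given before dissection. Retinas were pooled, 25 for each replicate, and each library was made from 500 sorted cells. By its label the amacrine and horizontal group is a mixture of both cell types, and whether it held other cells was not tested. Its summed ganglion cell marker level, given below, overlapped that of ganglion cell libraries. The progenitor group is defined by the absence of the 3 reporters, so it can hold any unlabelled cell of the dissociated tissue. No label states that the pools of a group were raised separately, so p-values measure the spread between these libraries.

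Amacrine cells are inhibitory interneurons of the inner retina, and horizontal cells are inhibitory interneurons that act on photoreceptor synapses. Both arise from dividing retinal progenitors through the bHLH factor Ptf1a, and in vertebrates their specification also involves Foxn4, factors of the AP-2 (Tfap2), Barhl, Onecut and LIM-homeodomain families, and Prox1. Progenitors express the replication machinery, eye field factors such as Rx, and Notch pathway genes that hold back neuronal differentiation.

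Total counts assigned to genes, in units of 1000000, were 22.9 to 30.8 per amacrine and horizontal library and 22.4 to 30.6 per progenitor library. On average 14264 ± 1501 genes had at least 1 count in amacrine and horizontal libraries and 15622 ± 1573 in progenitor libraries (SD, n = 5 each), a difference of -1358 genes that did not exceed the spread (two-sided exact permutation test, p = 0.19). Amacrine and horizontal replicate 1 stood apart: 7031 genes had 10 or more counts in it, against 8822 to 12004 in the other amacrine and horizontal libraries, and its log-scale correlation with them was 0.604 to 0.639, against 0.687 to 0.777 among the others. It also held 5063 CPM (counts per 1000000, on totals scaled by the TMM factors of all 20 libraries) of a blood marker list, against 13.4 to 87.6 CPM in the other 4 amacrine and horizontal libraries. Among progenitors, replicates 1, 2 and 5 held 4632, 5844 and 10226 CPM of that list, against 115 and 75.7 CPM in replicates 3 and 4.

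Of 32520 genes in the table, 10952 passed the filter on low counts and 600 differed between amacrine and horizontal cells and progenitors at an adjusted p under 0.05 in edgeR's quasi-likelihood test, 5.48% of those tested. Of these, 316 were higher (2.89%) and 284 were lower (2.59%). In such bulk samples, fewer cells of a type and less RNA per cell cannot be told apart. In 577 of the 600 genes the 5 amacrine and horizontal values did not overlap the 5 progenitor values. The same values gave the calls, so this is no separate support for them. Of all tested genes, these 577 included, 11.6% showed no overlap. The median size of the change was 2.13 on the log2 scale among the higher genes and 2.22 among the lower genes. The lower genes held many that were close to undetected in the neurons: 99 of the 284 had at most 3 counts in every amacrine and horizontal library, while 18 of the 316 higher genes had at most 3 counts in every progenitor library. Such genes passed the filter on low counts through the other group alone, so both counts depend on the filter. The share of such genes over all genes tested is not given here. Without amacrine and horizontal replicate 1, 1015 genes passed, 454 higher (3.84%) and 561 lower (4.74%), and 588 of the 600 were among them.

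**Figure D1:**
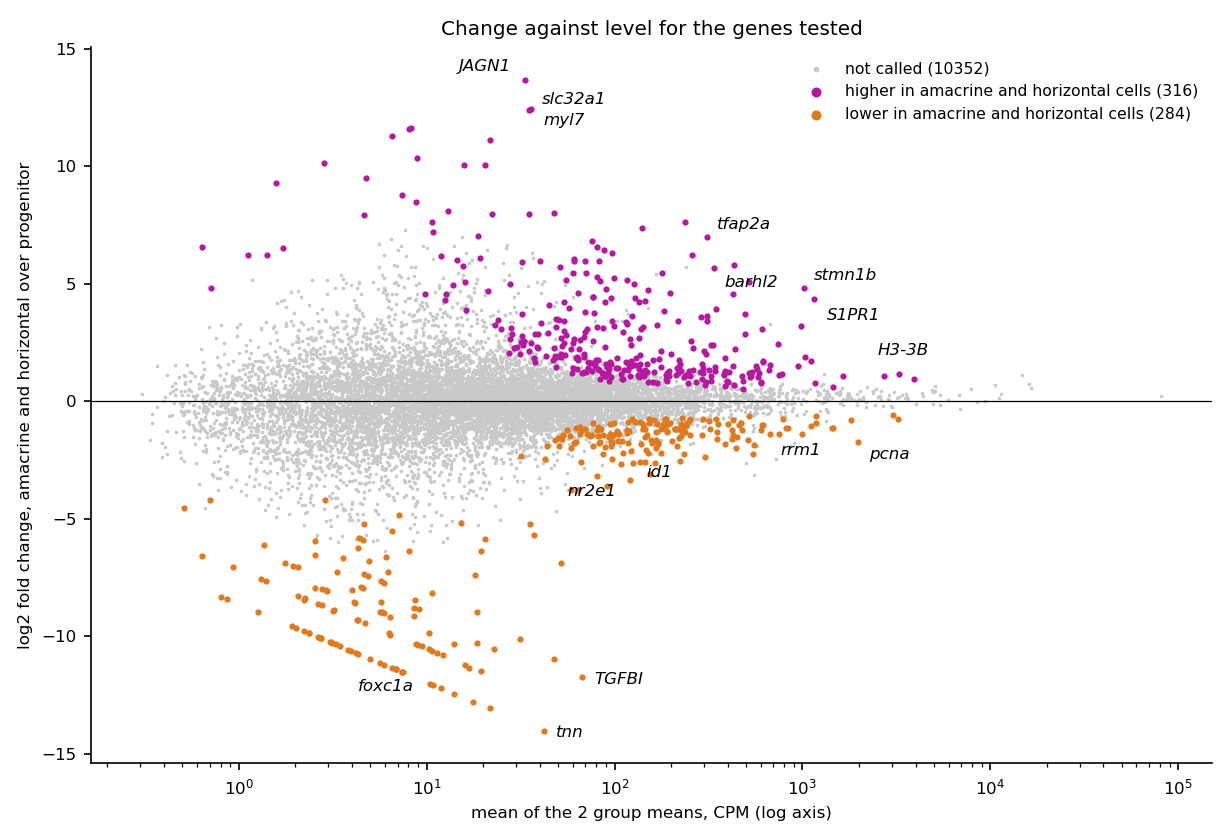
Log2 fold change of amacrine and horizontal cells over progenitors (vertical axis) against the mean of both group means in CPM (horizontal log axis) for the 10952 genes tested. Grey points are the 10352 genes not called. The 316 genes called higher and the 284 called lower are coloured, and the diagonal row at the lower left holds genes with no count in any amacrine and horizontal library, whose fitted change is not a bound.

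The genes behind the reporters were read first. The ptf1a gene (ENSDARG00000014479, GRCz11 chromosome 2, 29710857 to 29711761, plus strand) had 283, 107, 325, 232 and 54.9 CPM in the 5 amacrine and horizontal libraries, against 37.5, 8.82, 17.3, 0 and 29.4 CPM in the 5 progenitor libraries. The groups did not overlap, but the change of 3.39 ± 1.03 on the log2 scale (SE) missed the threshold with an edgeR adjusted p of 0.089, and it passed with an adjusted p of 0.014 without progenitor replicate 4, the library at 0. The crx gene, which encodes a homeodomain factor of photoreceptors and bipolar cells, was higher although the fraction was sorted as crx-: it averaged 579 ± 87.6 CPM in amacrine and horizontal cells and 46.1 ± 30.1 CPM in progenitors (SD, n = 5 each), a log2 fold change of 3.64 ± 0.40 (edgeR adjusted p = 0.0003). Photoreceptor libraries averaged 1278 CPM of crx, above amacrine and horizontal cells in the fit of all 20 libraries (log2 difference -1.14 for amacrine and horizontal over photoreceptor, edgeR adjusted p = 0.027). The atoh7 gene averaged 1810 ± 1451 CPM in amacrine and horizontal cells and 796 ± 226 CPM in progenitors, with an edgeR adjusted p of 0.17. Its level in amacrine and horizontal replicate 1 was 4300 CPM, against 816 to 1846 CPM in the other 4.

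Transcription factors of amacrine and horizontal fate held the largest number of higher calls of any list, though not the largest share. The share called was 45.9% here, 47.4% among ganglion cell markers and 75% among 4 bipolar markers tested, where 2.89% of all genes tested were higher. Of 46 listed factors, 37 were tested and 17 were called, all higher, with a median log2 fold change of 3.28 against 0.01 over all genes tested. The estimate was above 0 in 35 of the 37. Their summed level was 11936 to 15555 CPM in amacrine and horizontal libraries and 3945 to 4778 CPM in progenitor libraries, and leaving out single libraries left 14 to 18 calls.

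The AP-2 family, DNA-binding factors of amacrine and horizontal cells in vertebrates, had 4 of its 5 members called. For tfap2a (ENSDARG00000059279, chromosome 24, 8721676 to 8732519, minus strand) the values were 524, 757, 565, 483 and 751 CPM in amacrine and horizontal libraries, against 2.45, 15, 0.917, 1.42 and 4.27 CPM in progenitor libraries. The lowest neuronal value lay far above the highest progenitor value, and the log2 fold change was 6.97 ± 0.78 (SE, edgeR adjusted p = 0.00031). For tfap2b the values were 542, 350, 277, 513 and 680 CPM in amacrine and horizontal libraries, against 0.829, 10.6, 0, 0 and 0.233 CPM in progenitor libraries, a log2 fold change of 7.61 ± 1.46 (edgeR adjusted p = 0.0083). In both genes progenitor replicate 2 held most of the progenitor signal, and without it the log2 fold change was 8.07 for tfap2a and 10.75 for tfap2b. For tfap2c the values were 580, 654, 354, 559 and 413 CPM in amacrine and horizontal libraries, against 7.75, 0.0311, 5.33, 16.3 and 4.82 CPM in progenitor libraries. Here the log2 fold change was 6.21 ± 0.94 (SE, edgeR adjusted p = 0.002). The fourth, tfap2d, had 149, 260, 306, 184 and 156 CPM in amacrine and horizontal libraries, against 14.6, 38.1, 18.6, 1.38 and 34.6 CPM in progenitor libraries. Its groups were also apart, with the smallest change of the 4 (log2 fold change 3.28, edgeR adjusted p = 0.0097). The fifth, tfap2e, ranged over 6.34 to 91.5 CPM in amacrine and horizontal libraries and over 0 to 2.27 CPM in progenitor libraries, and its edgeR adjusted p was 0.077, or 0.0037 without progenitor replicate 2. Per kilobase of exon, the level in amacrine and horizontal cells was 199 CPM for tfap2a, 101 for tfap2c, 94.5 for tfap2b, 78.1 for tfap2d and 11.5 for tfap2e.

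The same genes were read against the other neurons. In the fit of all 20 libraries, 31 of 13838 genes were higher in the amacrine and horizontal fraction than in ganglion cells (0.224%), and tfap2a and tfap2e were among them, with tfap2a averaging 616 CPM in amacrine and horizontal cells and 13.9 CPM in ganglion cells. The test of tfap2d gave a log2 difference of 0.03 between amacrine and horizontal cells, at 211 CPM, and ganglion cells, at 207 CPM (edgeR adjusted p = 0.99).

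The Bar-family factor barhl2 (ENSDARG00000104361, chromosome 6, 24817852 to 24821681, plus strand), needed for amacrine subtypes in mice, had 751, 618, 553, 830 and 583 CPM in amacrine and horizontal libraries, against 13, 12.3, 18.6, 4.18 and 16.9 CPM in progenitor libraries. With a log2 fold change of 5.66 ± 0.39 it had the second smallest p of the genes that were higher (edgeR adjusted p = 1.5e-05). Its relative barhl1a averaged 180 ± 28.4 CPM in amacrine and horizontal cells and 19.1 ± 14.4 CPM in progenitors (log2 fold change 3.22, edgeR adjusted p = 0.0033). The LIM-homeodomain factor isl1, found in subsets of amacrine, bipolar and ganglion cells, had 1638, 633, 863, 852 and 1034 CPM in amacrine and horizontal libraries, against 49.0, 12.1, 44.0, 19.0 and 22.6 CPM in progenitor libraries. The groups differed by 5.07 ± 0.44 on the log2 scale (SE, edgeR adjusted p = 8.6e-05). The LIM factor lhx9 was higher in all 5 libraries but uneven: it had 43.7, 37.4, 173, 137 and 221 CPM in amacrine and horizontal libraries, against 3.11 to 6.6 CPM in progenitor libraries. This gave a log2 fold change of 4.62 ± 0.57 (SE, edgeR adjusted p = 0.00054). Among Onecut factors, which act in horizontal cell development in mice, onecut1 averaged 183 ± 25.4 CPM in amacrine and horizontal cells and 83.7 ± 23.7 CPM in progenitors, and onecutl averaged 44.4 ± 38.2 CPM in amacrine and horizontal cells and 0.166 ± 0.325 CPM in progenitors.

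Other members were called with smaller or less even changes. Both zebrafish Pax6 genes, eye field factors that stay on in amacrine cells, were higher: pax6b averaged 1636 ± 470 CPM in amacrine and horizontal cells and 431 ± 87.8 CPM in progenitors (log2 fold change 1.90, edgeR adjusted p = 0.00033), and pax6a averaged 1008 ± 140 CPM in amacrine and horizontal cells and 340 ± 78.9 CPM in progenitors (log2 fold change 1.55, adjusted p = 0.00038). The zinc finger factor prdm13, which acts downstream of Ptf1a in amacrine cells in mice, averaged 378 ± 82.9 CPM in amacrine and horizontal cells and 15.4 ± 15.3 CPM in progenitors, with an edgeR adjusted p of 0.016, or 0.0504 without progenitor replicate 2. Prox1a, a homeodomain factor of horizontal cells, did not pass: it had 37.7 to 120 CPM in amacrine and horizontal libraries and 0 to 19.1 CPM in progenitor libraries (edgeR adjusted p = 0.097, or 0.02 without progenitor replicate 3). Foxn4, a forkhead factor of progenitors that give amacrine and horizontal cells in mice, had 390 to 591 CPM in amacrine and horizontal libraries and 371 to 617 CPM in progenitor libraries, a log2 difference of -0.20 ± 0.17 (edgeR adjusted p = 0.69).

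Against the other neurons, 5 of the 37 listed factors were higher in the amacrine and horizontal fraction than in ganglion cells and 26 were higher than in photoreceptors, where 3.94% of all tested genes were. The 5 were tfap2a, tfap2e, barhl2, lhx9 and pax6b. These tests share the amacrine and horizontal libraries with each other and with the comparison to progenitors. The summed level of the list was 11936 to 15555 CPM in amacrine and horizontal libraries, 7542 to 12153 CPM in ganglion cell libraries, 2270 to 3817 CPM in photoreceptor libraries and 3945 to 4778 CPM in progenitor libraries.

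**Figure D2:**
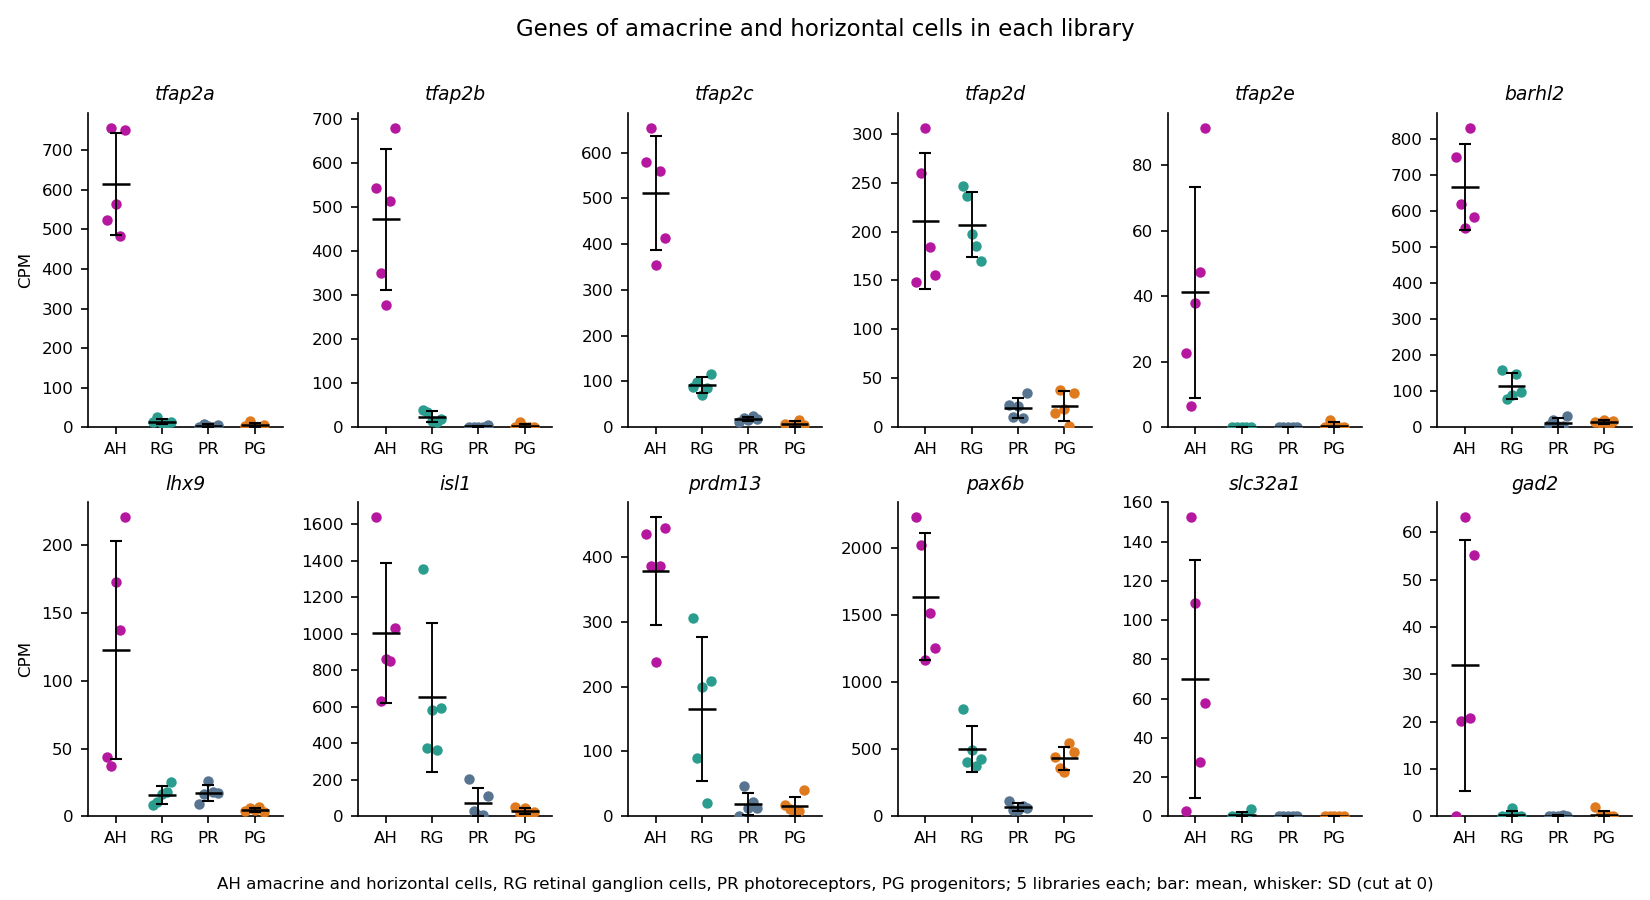
Level in CPM (vertical axis, linear from 0) of 12 genes of amacrine and horizontal cells in each of 5 libraries per group, with the mean and SD. In tfap2a, tfap2b, tfap2c and barhl2 all 5 amacrine and horizontal libraries lie above every other library, whereas tfap2d and isl1 overlap ganglion cells, and slc32a1 and gad2 are close to 0 in amacrine and horizontal replicate 1 (the leftmost point of its group).

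Genes of inhibitory transmission were mostly below the filter at this stage. Of 41 listed genes, 40 were found, 5 were tested and 1 passed, where 2.89% of all genes tested were higher. The gene was slc32a1 (ENSDARG00000059775, chromosome 6, 60142619 to 60147517, minus strand), the vesicular transporter that loads GABA and glycine. It had 2.91, 152, 109, 27.7 and 57.9 CPM in amacrine and horizontal libraries, against a single count in progenitor replicate 3 and none in the other progenitor libraries. The ratio of the mean amacrine and horizontal level to the pooled progenitor level was 9045 (edgeR adjusted p = 0.00031). Its 95% counting interval of 1623 to 357264 covers the counting error of the progenitor count only. Gad2, a GABA-synthesizing enzyme, had 0.0478, 20.2, 63.2, 20.8 and 55.3 CPM in amacrine and horizontal libraries, against 1.91, 0, 0.0417, 0 and 0.0388 CPM in progenitor libraries. Its edgeR adjusted p was 0.11 with all libraries. It passed, at 0.031, on leaving out amacrine and horizontal replicate 1, and, at 0.016, on leaving out progenitor replicate 1. In slc32a1 and gad2 alike, amacrine and horizontal replicate 1 was the lowest of its group.

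Of 45 listed synaptic vesicle genes, 41 were found and 18 were tested. The estimate was higher in all 18, with a median log2 fold change of 4.35. A gene low in progenitors could pass the filter on low counts only through the amacrine and horizontal libraries. The shared direction is therefore partly set by the filter. At the threshold, 1 of the 18 passed (5.56%), where 2.89% of all genes tested were higher. No setting gave fewer: the count was 10 with DESeq2 or voom weights, 8 in the upper range of track numbers alone, 7 with the track term or all 20 libraries, and 4 with the replicate block or no filter. Over all genes tested, 890 of 22762 were higher with DESeq2, 697 of 10952 with voom weights and 777 of 13838 with all 20 libraries. In the upper range 295 of 11643 were higher, with the track term 347 of 10952, with the block 190 of 10952 and with no filter 292 of 25183. The gene that passed, snap25b, a membrane fusion protein of synaptic vesicle release, had 206, 42.5, 37.7, 104 and 82.6 CPM in amacrine and horizontal libraries, against 1.78 CPM in progenitor replicate 1 and 0 in the other progenitor libraries. The ratio of the mean amacrine and horizontal level to the pooled progenitor level was 285 with a counting interval of 211 to 393 (edgeR adjusted p = 0.013). Progenitor replicate 1 held the highest progenitor value in 11 of the 18 genes. Without it 7 of the 18 passed, among them stxbp1a, snap25a and syt4. Leaving out amacrine and horizontal replicate 1 in its place let 3 of the 18 pass. Of all genes tested, 304 of 11227 were higher without progenitor replicate 1 and 454 of 11834 without amacrine and horizontal replicate 1. The summed level of the list was 509 to 798 CPM in amacrine and horizontal libraries, 172 to 304 CPM in ganglion cell libraries, 785 to 1044 CPM in photoreceptor libraries and 4.43 to 85.1 CPM in progenitor libraries.

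Genes of the neuronal cytoskeleton, axon growth and adhesion were higher in 10 and lower in 1 of 37 tested, with a median log2 fold change of 2.55, and 9 to 18 were higher over the 21 alternatives. Over all genes tested, 2.89% were higher and 2.59% lower. With voom weights, the setting that gave the 18, 697 of 10952 genes tested were higher. The microtubule-destabilizing protein stmn1b had 3520, 1201, 1742, 1764 and 1608 CPM in amacrine and horizontal libraries, against 130, 84.6, 53.8, 38.1 and 36.0 CPM in progenitor libraries. The groups were apart by about an order of magnitude at their nearest values, the log2 fold change was 4.81 ± 0.44 (edgeR adjusted p = 9.7e-05), and it was 4.50 without amacrine and horizontal replicate 1, the highest library. Gap43, a growth cone protein, had 70.3, 219, 191, 213 and 122 CPM in amacrine and horizontal libraries, against 8.66, 1.65, 0.333, 0.345 and 1.90 CPM in progenitor libraries. On the log2 scale the change was 5.96 ± 0.92 (SE, edgeR adjusted p = 0.0022). Collapsin response mediators link guidance receptors to microtubules. Of 4 of these genes counted, which did not cover every family member in the list, 3 were called. Among the family, dpysl5a averaged 247 ± 38.5 CPM in amacrine and horizontal cells and 28.9 ± 14.5 CPM in progenitors (log2 fold change 3.07, edgeR adjusted p = 0.00059). The semaphorin and VEGF receptor nrp2b averaged 106 CPM in amacrine and horizontal cells, 8.92 CPM in ganglion cells and 16.5 CPM in progenitors. It was the list's only gene past the threshold against ganglion cells (log2 difference 3.57, edgeR adjusted p = 0.0039). The member that was lower, stmn1a, averaged 923 ± 455 CPM in amacrine and horizontal cells and 1979 ± 306 CPM in progenitors (edgeR adjusted p = 0.028), and it lost the call on leaving out amacrine and horizontal replicate 2, 4 or 5 or progenitor replicate 1, 3 or 4.

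Neuronal RNA-binding proteins were higher in 3 of 13 tested (23.1%), where 2.89% of all genes tested were. The Hu protein gene elavl3, a widely used marker of newborn neurons, had 1411, 660, 872, 586 and 552 CPM in amacrine and horizontal libraries, against 29.5, 78.2, 35.4, 19.3 and 6.53 CPM in progenitor libraries. Here the log2 fold change was 4.56 ± 0.58 (SE, edgeR adjusted p = 0.00066). The splicing regulator rbfox2 averaged 248 ± 106 CPM in amacrine and horizontal cells and 7.69 ± 10.1 CPM in progenitors (edgeR adjusted p = 0.019), or 0.057 without progenitor replicate 3, a library whose omission left 1 call in this list.

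**Figure D3:**
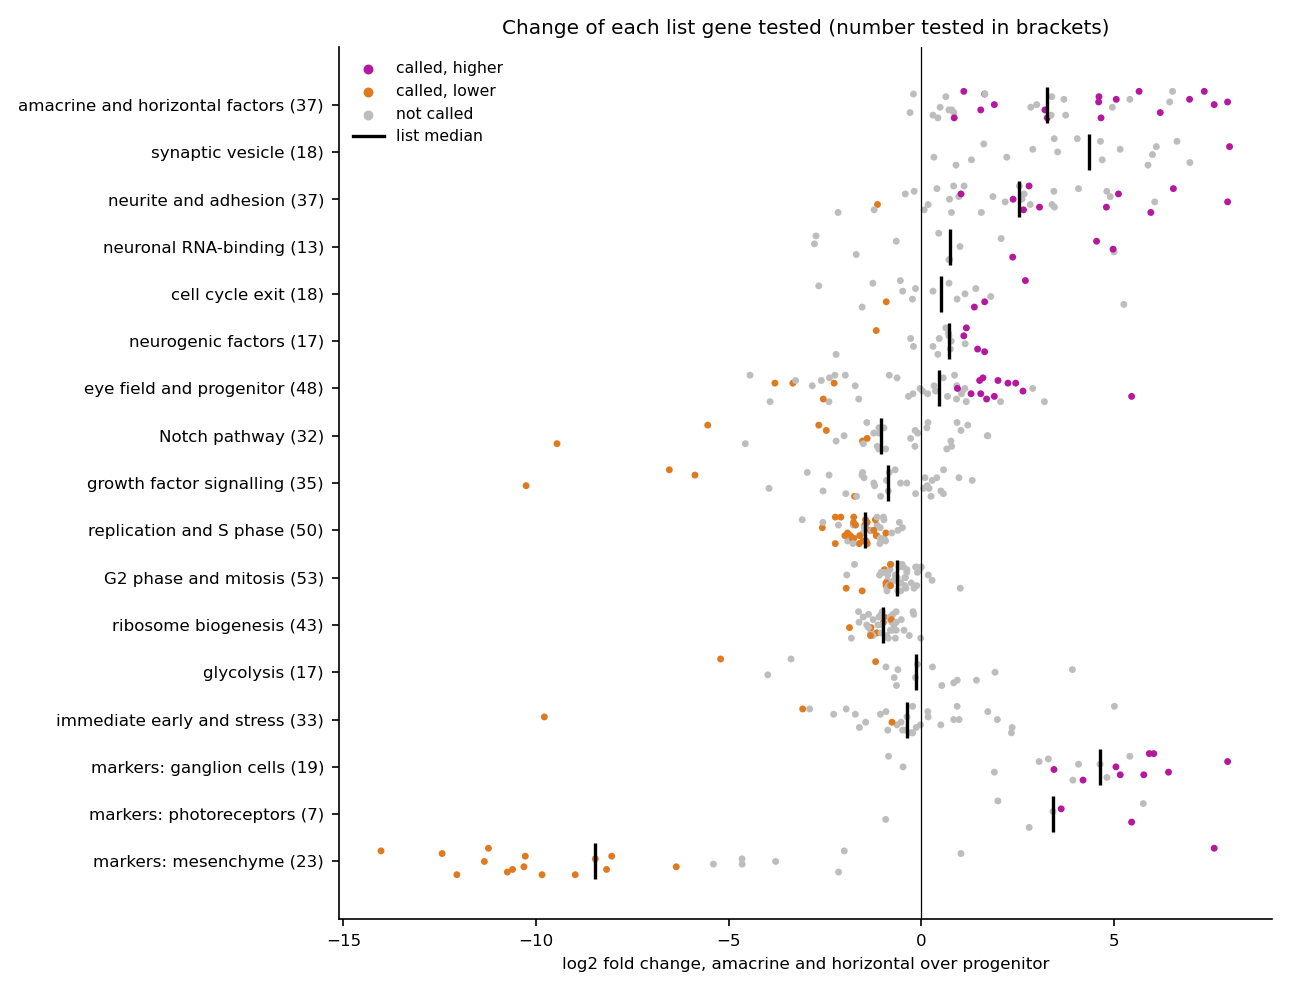
Log2 fold change of each tested gene (points) in 14 gene lists and 3 marker lists, with the list median (black line) and the number tested in brackets. The replication and ribosome biogenesis genes all lie below 0, the synaptic vesicle genes all lie above 0 with few calls, and the mesenchyme markers hold the lowest values.

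Among genes named for p, size or level rather than for a list, S1PR1 (ENSDARG00000042690, chromosome 22, 16038495 to 16042243, minus strand; the symbol is in human style in the annotation), a sphingosine 1-phosphate receptor, had the smallest p in the comparison. It had 3047, 1761, 2172, 2142 and 1878 CPM in amacrine and horizontal libraries, against 141, 69.7, 119, 107 and 96.9 CPM in progenitor libraries. The log2 fold change was 4.34 ± 0.23 (edgeR adjusted p = 3.2e-06) and lay between 4.2 and 4.46 on leaving out any single library. It was also higher in the amacrine and horizontal fraction than in ganglion cells, at 369 CPM (log2 difference 2.58, edgeR adjusted p = 0.00012). Against photoreceptors, at 124 CPM, the log2 difference was 4.15 (edgeR adjusted p = 4.3e-08). Ppdpfb, a homologue of a pancreatic progenitor differentiation factor, showed the same order, with 1409, 1397, 1438, 1888 and 2683 CPM in amacrine and horizontal libraries, against 230, 219, 210, 157 and 145 CPM in progenitor libraries. The groups differed by 3.18 ± 0.25 on the log2 scale (SE, edgeR adjusted p = 3.5e-05). Ppdpfb averaged 297 CPM in ganglion cells and 195 CPM in photoreceptors.

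Several others of the smallest p-values belonged to genes that missed the threshold between amacrine and horizontal cells and ganglion cells. The reticulon rtn1a, a neuronal endoplasmic reticulum protein, had 752, 445, 492, 587 and 400 CPM in amacrine and horizontal libraries, against 57.1, 35.8, 36.3, 56.6 and 34.3 CPM in progenitor libraries. This gave a log2 fold change of 3.58 ± 0.25 (SE, edgeR adjusted p = 1.5e-05), while ganglion cells averaged 320 CPM (log2 difference 0.74 ± 0.29, edgeR adjusted p = 0.22). The membrane glycoprotein GPM6A averaged 869 ± 136 CPM in amacrine and horizontal cells, 744 CPM in ganglion cells, 745 CPM in photoreceptors and 117 ± 40.9 CPM in progenitors (log2 fold change over progenitors 2.87, edgeR adjusted p = 8.6e-05). TRAF4, an adaptor of receptor signalling, had 142, 134, 191, 149 and 123 CPM in amacrine and horizontal libraries, against 6.63, 5.03, 4.37, 8.97 and 8.74 CPM in progenitor libraries. The fitted log2 change was 4.43 ± 0.31 (SE, edgeR adjusted p = 1.5e-05). Ganglion cells averaged 60.3 CPM of TRAF4 (log2 difference 1.29 ± 0.38, edgeR adjusted p = 0.12).

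At the largest changes, the progenitor value was near or at 0. Myl7, a myosin light chain of heart muscle, had 43.1, 134, 70, 47.4 and 65.1 CPM in amacrine and horizontal libraries, against a single count in progenitor replicate 5 and none in the other progenitor libraries. The ratio of the mean amacrine and horizontal level to the pooled progenitor level was 9294 with a counting interval of 1668 to 367104. Ganglion cells averaged 0.591 CPM and photoreceptors 0.256 CPM. JAGN1, a secretory pathway membrane protein, had 92.7, 50.1, 14.1, 64.4 and 114 CPM in amacrine and horizontal libraries and no count in any progenitor library, which is at least 519-fold higher against a floor of 3 counts per library. Among the most abundant genes that were higher, the histone variant gene H3-3B averaged 4524 ± 1309 CPM in amacrine and horizontal cells and 1989 ± 211 CPM in progenitors (log2 fold change 1.16), and marcksl1b, an actin-binding substrate of protein kinase C, averaged 2258 ± 165 CPM in amacrine and horizontal cells and 1047 ± 114 CPM in progenitors (log2 fold change 1.09, edgeR adjusted p = 0.00057).

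Replication and S-phase genes were lower in amacrine and horizontal cells. Of 50 listed genes all 50 were tested and 26 were called (52%), all lower, where 2.59% of all genes tested were lower. All 50 estimates lay below 0, between -3.09 and -0.485 with a median of -1.45. Their summed level was 4391 to 6526 CPM in amacrine and horizontal libraries, 7092 to 9211 CPM in ganglion cell libraries, 13257 to 15489 CPM in photoreceptor libraries and 14993 to 16902 CPM in progenitor libraries. Between 20 and 35 genes were lower on leaving out single libraries. The 35 were reached without amacrine and horizontal replicate 1, where 4.74% of all genes tested were lower.

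The MCM helicase, which unwinds DNA at replication forks, had 5 of its 6 subunits called, with log2 fold changes of -2.23 to -1.6. The sixth, mcm7, at -1.77, was not called (edgeR adjusted p = 0.11, or 0.034 without amacrine and horizontal replicate 4). For mcm3 (ENSDARG00000024204, chromosome 20, 34770197 to 34783743, plus strand) the values were 138, 220, 162, 261 and 189 CPM in amacrine and horizontal libraries, against 864, 973, 946, 1020 and 692 CPM in progenitor libraries. On the log2 scale the change was -2.23 ± 0.21 (SE, edgeR adjusted p = 0.00013). For the sliding clamp pcna the values were 790, 738, 1220, 653 and 1185 CPM in amacrine and horizontal libraries, against 2834, 2928, 3442, 2542 and 3521 CPM in progenitor libraries. That was a log2 fold change of -1.75 ± 0.21 (SE, edgeR adjusted p = 0.00038). In neither gene did the groups overlap. DNA ligase lig1, which joins Okazaki fragments, had the most negative change among the called genes of the list: 33.6, 36.1, 33.3, 49.4 and 47.8 CPM in amacrine and horizontal libraries, against 295, 135, 191, 299 and 254 CPM in progenitor libraries. The groups differed by -2.57 ± 0.27 on the log2 scale (SE, edgeR adjusted p = 0.0002). The ribonucleotide reductase subunit rrm2 had 290, 338, 316, 205 and 289 CPM in amacrine and horizontal libraries, against 615, 724, 630, 442 and 914 CPM in progenitor libraries. This gave a log2 fold change of -1.23 ± 0.21 (SE, edgeR adjusted p = 0.0046). Chromatin assembly and maintenance methylation genes were lower too, with log2 fold changes of -2.23 for chaf1b, -2.09 for uhrf1, -1.79 for chaf1a and -1.79 for dnmt1, all of them called.

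Of 53 genes of G2 phase and mitosis tested, 7 were called (13.2%), all lower, where 2.59% of all genes tested were lower. The median log2 fold change was -0.62, and 49 of the 53 estimates lay below 0. Cyclin ccnb1, which drives mitotic entry, had 168, 120, 163, 97.6 and 142 CPM in amacrine and horizontal libraries, against 264, 224, 225, 260 and 305 CPM in progenitor libraries. The fitted log2 change was -0.91 ± 0.19 (SE, edgeR adjusted p = 0.012). The condensin subunit smc4 had 16, 42.3, 20.4, 53 and 52.7 CPM in amacrine and horizontal libraries, against 94.1, 110, 113, 232 and 159 CPM in progenitor libraries. On the log2 scale the change was -1.95 ± 0.41 (SE, edgeR adjusted p = 0.014). Cyclin ccna2, listed with S phase, had 221, 122, 242, 223 and 208 CPM in amacrine and horizontal libraries, against 566, 427, 520, 482 and 504 CPM in progenitor libraries. That was a log2 fold change of -1.32 ± 0.19 (SE, edgeR adjusted p = 0.0016). The count of 7 mitotic genes ranged from 1 with no filter and 2 with the replicate block to 17 with voom weights. Over all genes tested, 236 of 25183 were lower with no filter, 136 of 10952 with the block and 641 of 10952 with voom weights. It grew to 17 on leaving out amacrine and horizontal replicate 1, where 4.74% of all genes tested were lower. It fell to 4 on leaving out replicate 2 of that group or progenitor replicate 1, 3 or 4, and to 3 on leaving out replicate 4 of that group or progenitor replicate 2. Against ganglion cells, 6 of the 53 mitotic genes and 3 of the 50 replication genes were lower in amacrine and horizontal cells, where 0.6% of all genes tested were, and against photoreceptors 7 and 33 were, where 4.77% were.

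Of 18 genes of cell cycle exit, 3 were higher and 1 lower, where 2.89% of all genes tested were higher and 2.59% lower. The growth arrest gene gadd45ga had 64.6, 103, 121, 81.7 and 82.8 CPM in amacrine and horizontal libraries, against 17.9, 10, 14.6, 11.1 and 14.8 CPM in progenitor libraries. The groups differed by 2.71 ± 0.34 on the log2 scale (SE, edgeR adjusted p = 0.00054). The anti-proliferative gene btg1 averaged 939 ± 372 CPM in amacrine and horizontal cells and 296 ± 106 CPM in progenitors (log2 fold change 1.65, edgeR adjusted p = 0.0055). Cyclin ccnd1, which drives progenitors through G1 phase, was the member that was lower, with 1296, 667, 701, 650 and 864 CPM in amacrine and horizontal libraries, against 1576, 1410, 1468, 1672 and 1561 CPM in progenitor libraries. This gave a log2 fold change of -0.91 ± 0.19 (SE, edgeR adjusted p = 0.014). Without amacrine and horizontal replicate 1, whose ccnd1 level was the highest of its group, 5 genes of the list were higher and 2 lower, and over the 21 alternatives 2 to 6 were higher and 1 to 3 lower. Without that replicate, 3.84% of all genes tested were higher and 4.74% lower.

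**Figure D4:**
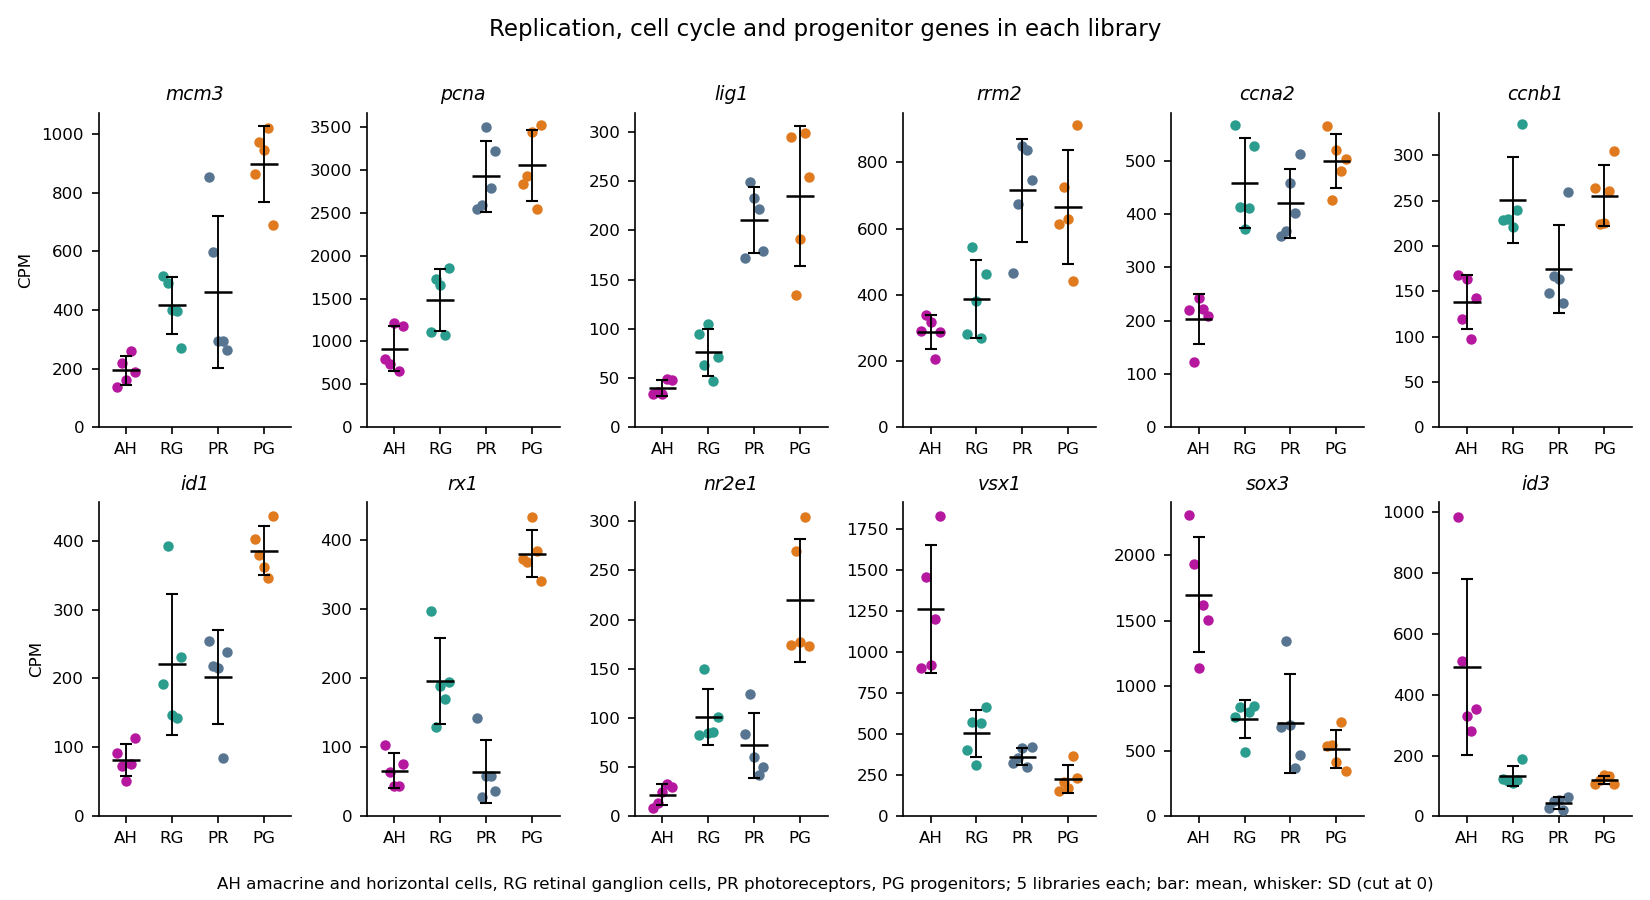
Level in CPM (vertical axis, linear from 0) of 6 replication and cell cycle genes (top row) and 6 progenitor list genes (bottom row) in each of 5 libraries per group, with the mean and SD. Replication genes are lowest in amacrine and horizontal cells on average, id1, rx1 and nr2e1 are highest in progenitors, and vsx1, sox3 and id3 run the other way.

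Eye field and progenitor factors did not move as a block. Of 48 tested, 12 were higher and 4 lower in amacrine and horizontal cells, with a median log2 fold change of 0.47, and 8 were lower with voom weights. Over all genes tested, 2.89% were higher and 2.59% lower, and with voom weights 641 of 10952 were lower. The 4 that were lower included the orphan nuclear receptor nr2e1 (ENSDARG00000017107, chromosome 20, 32437396 to 32446406, minus strand), a regulator of retinal and neural progenitors, with 8.89, 13.1, 25.2, 33.2 and 29.6 CPM in amacrine and horizontal libraries, against 174, 270, 177, 305 and 174 CPM in progenitor libraries. The fitted log2 change was -3.33 ± 0.39 (SE, edgeR adjusted p = 0.00038). The eye field homeodomain factor rx1 had 104, 64.7, 43.8, 43.9 and 75.8 CPM in amacrine and horizontal libraries, against 373, 368, 434, 385 and 341 CPM in progenitor libraries. On the log2 scale the change was -2.54 ± 0.25 (SE, edgeR adjusted p = 0.00014). Both genes were also lower in the amacrine and horizontal fraction than in ganglion cells, by log2 differences of -2.19 for nr2e1 (edgeR adjusted p = 0.0036) and -1.56 for rx1 (edgeR adjusted p = 0.035). A relative, rx2, had 0 to 18.8 CPM in amacrine and horizontal libraries and 66.5 to 86.6 CPM in progenitor libraries. Its edgeR adjusted p was 0.07, and 0.013 without amacrine and horizontal replicate 1 or 0.01 without replicate 5, the libraries with the lowest and the highest value of their group.

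Of the Id genes listed (id1, id2a, id2b and id3), inhibitors of bHLH factors, id1 and id3 went opposite ways. Id1 had 92.6, 73.6, 51.4, 75.7 and 113 CPM in amacrine and horizontal libraries, against 402, 379, 362, 345 and 436 CPM in progenitor libraries. That was a log2 fold change of -2.26 ± 0.22 (SE, edgeR adjusted p = 0.00013). Id3 had 984, 509, 330, 280 and 353 CPM in amacrine and horizontal libraries, against 107, 121, 135, 131 and 107 CPM in progenitor libraries. The groups differed by 2.0 ± 0.31 on the log2 scale (SE, edgeR adjusted p = 0.0025). Its change was 1.6 without amacrine and horizontal replicate 1. The same opposition held against ganglion cells, with log2 differences of -1.44 for id1 (edgeR adjusted p = 0.018) and 1.89 for id3 (edgeR adjusted p = 0.0046), in tests that share the amacrine and horizontal libraries.

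Among the progenitor list genes that were higher, vsx1, a homeodomain factor of bipolar cells and their precursors, had 901, 1456, 918, 1199 and 1827 CPM in amacrine and horizontal libraries, against 155, 208, 175, 368 and 236 CPM in progenitor libraries. This gave a log2 fold change of 2.46 ± 0.29 (SE, edgeR adjusted p = 0.00038). The SoxB1 factor sox3, which marks neural progenitors in the embryo, had 2307, 1930, 1134, 1622 and 1500 CPM in amacrine and horizontal libraries, against 540, 550, 417, 722 and 345 CPM in progenitor libraries. The fitted log2 change was 1.70 ± 0.24 (SE, edgeR adjusted p = 0.0012). Others were mab21l1 (2.25), meis1b (1.52), hmx4 (1.6) and six3a (1.3), eye development factors given with their log2 fold changes, each called with no overlap between groups.

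Proneural and related factors were higher in 4 and lower in 1 of 17 tested, and higher in 2 with the replicate block. Over all genes tested, 2.89% were higher and 2.59% lower, and with the block 190 of 10952 were higher. The bHLH factor neurod1 had 638, 491, 508, 533 and 356 CPM in amacrine and horizontal libraries, against 181, 201, 167, 196 and 153 CPM in progenitor libraries. On the log2 scale the change was 1.47 ± 0.17 (SE, edgeR adjusted p = 0.00038), while photoreceptors averaged 2008 CPM. The homeodomain factor otx2b, of photoreceptor and bipolar precursors, averaged 532 ± 133 CPM in amacrine and horizontal cells and 234 ± 59.6 CPM in progenitors (log2 fold change 1.17, edgeR adjusted p = 0.013). Ascl1a, a proneural factor of progenitors, was the member that was lower, at 131 ± 43.8 CPM in amacrine and horizontal cells and 289 ± 76.9 CPM in progenitors (edgeR adjusted p = 0.023), a call lost on leaving out amacrine and horizontal replicate 3, 4 or 5 or progenitor replicate 2 or 4.

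Notch pathway genes were called in 6 of 32 tested (18.8%), all lower, where 2.59% of all genes tested were lower. The median log2 fold change of the list was -1.03. Its symbol dld was matched by the human-style symbol DLD, which can name a different gene, so the list may hold a gene from outside the pathway. Among the Notch targets, her4.1 had 33.1, 35.4, 22.4, 6.6 and 52.2 CPM in amacrine and horizontal libraries, against 191, 188, 140, 116 and 182 CPM in progenitor libraries. That was a log2 fold change of -2.46 ± 0.45 (SE, edgeR adjusted p = 0.0064). A second Hes-type repressor, her15.2, averaged 52.4 ± 12.4 CPM in amacrine and horizontal cells and 136 ± 21.0 CPM in progenitors (log2 fold change -1.40, edgeR adjusted p = 0.0033). The ligand dlb (deltaB) had 105, 38.5, 73.4, 118 and 44.0 CPM in amacrine and horizontal libraries, against 234, 236, 219, 176 and 202 CPM in progenitor libraries. The groups differed by -1.52 ± 0.30 on the log2 scale (SE, edgeR adjusted p = 0.01). Ganglion cells averaged 220 CPM of dlb, so it was also lower in the amacrine and horizontal fraction than in those neurons (log2 difference -1.54, edgeR adjusted p = 0.0065). Of the receptors, notch2 averaged 0.272 CPM in amacrine and horizontal cells and 12.7 CPM in progenitors (edgeR adjusted p = 0.0081), whereas notch3 averaged 92.6 ± 69.5 CPM in amacrine and horizontal cells and 200 ± 72.5 CPM in progenitors, with an edgeR adjusted p of 0.25, or 0.035 without amacrine and horizontal replicate 1. Because her4.1 lies in a cluster of near-identical copies and reads that map to several places were not counted, its level is uncertain. The same may hold for her15.2, which was listed beside the related gene her15.1. With the 4 amacrine and horizontal and 3 progenitor libraries of the upper range of track numbers only, 2 Notch genes were called, and with voom weights or all 20 libraries 11 were lower. Over all genes tested, 206 of 11643 were lower in that range, 641 of 10952 with voom weights and 763 of 13838 with all 20 libraries.

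Growth factor and retinoic acid signalling genes were called in 4 of 35 tested (11.4%), all lower, where 2.59% of all genes tested were lower. Cyp26a1, which degrades retinoic acid, had no count in any amacrine and horizontal library, against 7, 4.88, 5.79, 9.87 and 3.26 CPM in progenitor libraries, at least 41-fold lower against the floor of 3 counts per library. The FGF receptor fgfr1a averaged 0.0496 CPM in amacrine and horizontal cells and 5.05 CPM in progenitors (edgeR adjusted p = 0.01). The count was 2 without progenitor replicate 1, 2 or 4, 0 in the upper range of track numbers alone, 1 with the replicate block and 7 with voom weights. Over all 10952 genes tested, 136 were lower with the block and 641 with voom weights.

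Ribosome biogenesis genes lay below 0 in all 43 tested, with a median log2 fold change of -0.98. Of them 7 were called (16.3%), where 2.59% of all genes tested were lower. The nucleolar chaperone npm1a had 235, 179, 243, 181 and 359 CPM in amacrine and horizontal libraries, against 721, 679, 1141, 1001 and 755 CPM in progenitor libraries. This gave a log2 fold change of -1.86 ± 0.24 (SE, edgeR adjusted p = 0.00066). The snoRNP core proteins nop58 and nop56 had log2 fold changes of -1.32 (adjusted p = 0.001) and -0.96 (adjusted p = 0.0069) by edgeR. Leaving out amacrine and horizontal replicate 1 gave 16 calls, and leaving out replicate 2 of that group or progenitor replicate 4 gave 4. Voom weights gave 18 calls and the replicate block gave 4. Over all 10952 genes tested, 641 were lower with voom weights and 136 with the block. Without amacrine and horizontal replicate 1, 4.74% of all genes tested were lower. The list summed to 2953 to 4121 CPM in amacrine and horizontal libraries and 5718 to 8582 CPM in progenitor libraries. Of the 79 ribosomal protein genes 1 was called, lower (1.27%, below the share of 2.59% over all genes tested). For 65 of the 79 the estimate lay above 0, with a median of 0.16. Their sum was uneven, at 206874 and 191916 CPM in amacrine and horizontal replicates 1 and 3 and 97153 to 114068 CPM in replicates 2, 4 and 5. Progenitor libraries held 87472 to 148973 CPM.

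Among the most abundant genes that were lower, EIF5A2, a translation factor, was even within both groups, with 981, 1010, 896, 833 and 831 CPM in amacrine and horizontal libraries, against 1870, 2079, 2087, 1825 and 1964 CPM in progenitor libraries. The fitted log2 change was -1.13 ± 0.13 (SE, edgeR adjusted p = 0.00031). PRMT1, an arginine methyltransferase, averaged 719 ± 117 CPM in amacrine and horizontal cells and 1490 ± 248 CPM in progenitors (log2 fold change -1.07, edgeR adjusted p = 0.0026). Glycolysis genes were lower in 2 of 17 tested (11.8%), where 2.59% of all genes tested were lower. Of these 2, the lactate dehydrogenase ldhba averaged 199 ± 38.2 CPM in amacrine and horizontal cells and 445 ± 56.1 CPM in progenitors (log2 fold change -1.18, edgeR adjusted p = 0.0019). The other, gapdh, averaged 0.248 CPM in amacrine and horizontal cells and 9.03 CPM in progenitors, and leaving out any library but amacrine and horizontal replicate 1 or progenitor replicate 5 ended its call. Of 33 immediate early and stress genes tested, 3 were lower (9.09%, against the same 2.59%). They were led in level by the mRNA decay factor zfp36l1a, at 33.5 ± 19.3 CPM in amacrine and horizontal cells and 277 ± 67.4 CPM in progenitors (log2 fold change -3.08, edgeR adjusted p = 0.00057). Without amacrine and horizontal replicate 1, 2 stress genes were higher, where 3.84% of all genes tested were. With the replicate block or no filter 1 was lower, where 136 of 10952 and 236 of 25183 genes tested were. Of the 13 mitochondrially encoded genes 0 were called by edgeR, 0 had an unadjusted p under 0.05 and 0 were called by DESeq2, with log2 differences of -0.115 to 0.558. Their sum was 111400 CPM in amacrine and horizontal replicate 1 and 33767 to 52950 CPM in replicates 2 to 5. Progenitor libraries held 40393 to 50256 CPM.

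Markers of other cells were read in both fractions. Of 45 mesenchyme markers found, 23 were tested. Of these 15 were lower, where 2.59% of all genes tested were, and 1, tfap2b, which is also an amacrine gene, was higher. Markers low in amacrine and horizontal cells could pass the filter on low counts only through the progenitor libraries. The 23 are thus partly selected for being lower, and their share is not directly comparable with 2.59%. Tnn, an extracellular matrix tenascin, had no count in any amacrine and horizontal library, against 88.6, 104, 32.2, 111 and 83.9 CPM in progenitor libraries, at least 566-fold lower. The forkhead gene foxc1a, of periocular mesenchyme, had no count in any amacrine and horizontal library, against 22.5, 6.46, 6.5, 35.8 and 36.2 CPM in progenitor libraries, at least 145-fold lower. The matrix protein gene TGFBI, outside the list, had 4 counts in all amacrine and horizontal libraries together, against 110, 168, 174, 118 and 99.9 CPM in progenitor libraries (edgeR adjusted p = 1.5e-05).

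Without tfap2b, the 44 mesenchyme markers found summed to 93.2 to 197 CPM in amacrine and horizontal libraries, of which nr2f5 alone gave 145 CPM on average, 19.8 to 63.8 CPM in ganglion cell libraries, 15.8 to 23.4 CPM in photoreceptor libraries and 519 to 832 CPM in progenitor libraries. In all, 8 of 45 markers had no count in any amacrine and horizontal library, against 1 of 45 in progenitors. Of 8 epidermal markers tested, 3 were lower, the keratins krt8, krt18b and krt18a.1, and the median log2 difference of the 8 was -0.45. The gene krt18a.1 had no count in any amacrine and horizontal library, against 12.3 to 28.9 CPM in progenitor libraries, at least 141-fold lower. Pigment cell and endothelial lists each had 1 gene lower, bhlhe40 of 6 tested and egfl7 of 5 tested. Over all genes tested, 2.59% were lower and 2.89% higher. Of 7 blood markers tested, ctss2.2 was higher, at 1.26 CPM in amacrine and horizontal cells and 0.00829 CPM in progenitors. Without amacrine and horizontal replicate 1, 4 blood markers were lower, where 4.74% of all genes tested were. The single lens marker tested was prox1a, given above. The part of these cells in the genes that were lower was not tested.

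Markers of other retinal neurons were read in the same way. Ganglion cell markers were higher in 9 of 19 tested (47.4%), where 2.89% of all genes tested were. Their median log2 fold change was 4.65, and 5 were higher with the replicate block and 15 with voom weights. Over all 10952 genes tested, 190 were higher with the block and 697 with voom weights. The RNA-binding protein rbpms2b had 1530, 917, 738, 495 and 554 CPM in amacrine and horizontal libraries, against 32.0, 11.5, 10.6, 4.01 and 17.1 CPM in progenitor libraries. On the log2 scale the change was 5.78 ± 0.57 (SE, edgeR adjusted p = 0.00013). The POU factor pou4f2 had 104, 90.1, 102, 123 and 184 CPM in amacrine and horizontal libraries, against 3.98, 1.77, 0, 0 and 3.30 CPM in progenitor libraries. That was a log2 fold change of 6.04 ± 1.22 (SE, edgeR adjusted p = 0.011). Ganglion cell libraries averaged 588 CPM of rbpms2b and 94.3 CPM of pou4f2, with adjusted p-values of 0.88 and 0.94 against amacrine and horizontal cells. The summed list stood at 1969 to 6933 CPM in amacrine and horizontal libraries, highest in replicate 1, at 1921 to 6295 CPM in ganglion cell libraries and at 82.1 to 368 CPM in progenitor libraries.

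Photoreceptor markers were higher in 2 of 7 tested, crx and six7, where 2.89% of all genes tested were higher, and in 5 with DESeq2 or all 20 libraries. Over all genes tested, 890 of 22762 were higher with DESeq2 and 777 of 13838 with all 20 libraries. The photoreceptor markers summed to 971 to 1332 CPM in amacrine and horizontal libraries and 1318 to 1615 CPM in ganglion cell libraries. Photoreceptor libraries held 4518 to 6001 CPM and progenitor libraries 40.5 to 147 CPM. In amacrine and horizontal cells 7 of the 29 photoreceptor markers found had no count, against 8 in progenitors. Bipolar markers were higher in 3 of 4 tested (isl1, vsx1 and otx2b). The list summed to 2304 to 3674 CPM in amacrine and horizontal libraries, 1640 to 2593 CPM in ganglion cell libraries and 356 to 667 CPM in progenitor libraries. The 3 genes averaged 1004, 1260 and 532 CPM in amacrine and horizontal cells and make up most of the sum there. They are also in the lists of amacrine and horizontal, progenitor and proneural factors. Of 8 Müller glia markers tested 1 was higher, the lipoprotein gene apoeb, at 103 CPM in amacrine and horizontal cells and 5.38 CPM in progenitors (edgeR adjusted p = 0.035), a call lost on leaving out any of amacrine and horizontal replicates 2 to 4 or progenitor replicate 1, 3 or 5. Of 5 muscle markers tested only myl7 was called by edgeR, and the list summed to 49.8 to 208 CPM in amacrine and horizontal libraries and 8.98 to 125 CPM in progenitor libraries. The part of these cells in the genes that were higher was not tested.

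**Figure D5:**
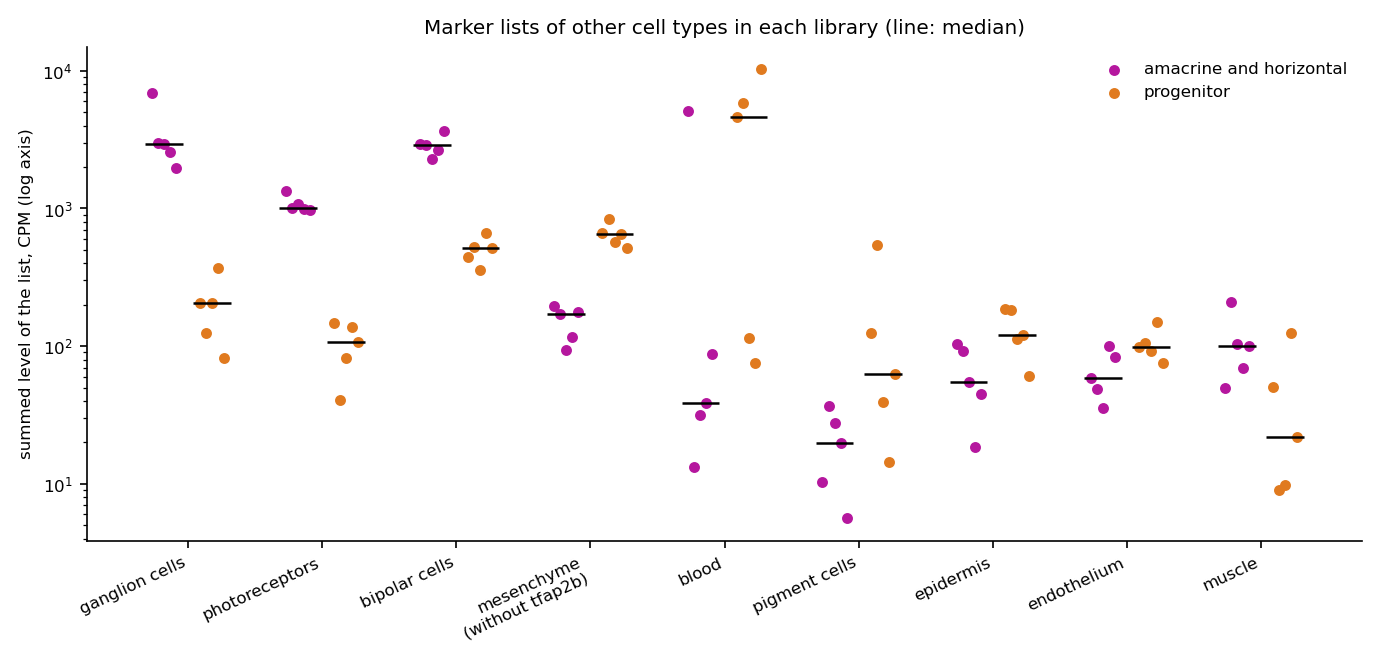
Summed level in CPM (vertical log axis) of marker lists of other cell types in each of the 5 amacrine and horizontal and 5 progenitor libraries, with the median as a line. Ganglion cell, photoreceptor and bipolar lists lie above the progenitor libraries in every amacrine and horizontal library, the mesenchyme list without tfap2b lies below in every one, and the blood list splits both groups.

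The amacrine and horizontal libraries varied more among themselves than the progenitor libraries. Over 5895 genes with a mean of at least 10 CPM in both groups, the median coefficient of variation was 52.0% among amacrine and horizontal libraries and 30.3% among progenitor libraries. Among the 316 genes that were higher, amacrine and horizontal replicate 1 was the highest library of its group in 147 and the lowest in 52, and replicate 5 was the lowest in 87. The chemokine receptor gene cxcr4b was among the most uneven. It had 3635, 717, 764, 422 and 581 CPM in amacrine and horizontal libraries, against 105, 24.7, 152, 313 and 3.92 CPM in progenitor libraries. Its groups did not overlap, and its edgeR adjusted p was 0.075, or 0.048 without progenitor replicate 4.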

How the data were processed

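Poly(A) RNA of 500 sorted cells per library was amplified by SmartSeq-2 and sequenced on a NextSeq500, per the labels' protocols. Raw counts per gene were deposited as 1 table of all 20 libraries. Per the file headers, the authors aligned reads with GSNAP and counted them over exons with featureCounts 1.6.3 and the Ensembl 95 annotation of GRCz11, without strand and without multimapping reads, so overlapping or near-identical genes are uncertain. Demultiplexing used bcl2fastq 2.19.1, per the submitters' processing notes. The table holds 32520 genes beside 92 spike-in controls, which were left out.

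From these counts, the 5 amacrine and horizontal and 5 progenitor libraries were compared with edgeR 4.0.16 (R 4.3.3): filterByExpr, TMM factors, a quasi-likelihood test and Benjamini-Hochberg adjustment over the 10952 genes tested, with a threshold of 0.05. The filter asked for its count level in 5 libraries, so a gene could pass through 1 group alone. Only these 10 libraries entered, so that the spread came from the groups compared. They shared 1 common dispersion of 1.27, although it was 1.86 among amacrine and horizontal libraries and 0.743 among progenitor libraries alone. Differences from ganglion cells and photoreceptors came from a fit of all 20 libraries, over 13838 genes. Levels are CPM on TMM-scaled totals of all 20 libraries, and values after ± are SDs for levels and SEs for log2 fold changes. These SEs were calculated back from the test, as the absolute log2 fold change divided by the square root of its F value. They restate the p-value and are no separate measure of precision. Counting intervals are exact at 95% for the pooled counts of the lower group and, like the floor of 3 counts, cover counting error only.

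Alternatives were all 20 libraries, a replicate block, a term for the range of track numbers in the labels, RLE and upper quartile factors, no filter, 10 counts in 5 libraries, DESeq2 1.42.0, voom with quality weights (limma 3.58.1), robust fitting and leaving out each library. Genes were named if they belonged to a list, or, in each direction, were among the 15 largest changes with no overlap and at least 10 CPM, the 10 smallest p-values or the 10 highest levels with a log2 change of at least 1. The comparison and the 16 gene and 11 marker lists were chosen with earlier results of these data known. Of 951 list symbols, 880 matched the table's symbols, and symbols in capitals are as the table gives them. Library numbers in the labels were not treated as pairs.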

Additional observations from a re-analysis of the deposited data

Results flagged for a closer look

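In 9 of 114 sets of 5 libraries of 1 group that were screened, 1 for each library measure or gene, a single library lay far from the other 4, which chance gives in about 5% of groups. In amacrine and horizontal replicate 1 the blood list stood at 5063 CPM, stmn1b at 3520 CPM and cxcr4b at 3635 CPM, each the highest of that group. In amacrine and horizontal replicate 2 ccna2 was the lowest of its group, at 122 CPM. In progenitor replicate 2, tfap2a at 15 CPM and tfap2b at 10.6 CPM were the highest of the progenitor libraries. In progenitor replicate 1 the highest progenitor values were those of gad2 at 1.91 CPM, snap25b at 1.78 CPM and gap43 at 8.66 CPM. Amacrine and horizontal replicate 1 and progenitor replicates 1 and 2 are also the libraries of the comparison in the lower range of track numbers. Amacrine and horizontal replicate 2 is in the upper range. The labels do not say what the ranges stand for. What set the outlying libraries apart was not tested.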

How the results depend on the processing

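All 600 calls kept their direction under every alternative that gave them a value. The alternatives reuse the same counts, so kept directions are no separate support for the calls. Fitting all 20 libraries gave 1540 calls (777 higher, 763 lower), DESeq2 gave 2088 (890 higher, 1198 lower) and voom with quality weights gave 1338 (697 higher, 641 lower). The count of a list under an alternative is therefore to be read against the calls over all genes in that setting. List counts cover members tested in the main fit, while counts over all genes cover every gene of that setting, so the sets differ. The 22762 genes of DESeq2 are those with a p-value and can include genes left without an adjusted p. Leaving out single libraries gave 509 to 1015 calls, 254 to 454 higher and 225 to 561 lower, with the most without amacrine and horizontal replicate 1 and 429 lower without replicate 5 of that group. The cause was not tested. The track term, the other factors, both other filters and robust fitting gave 528 to 630 calls. The replicate block gave 326 calls (190 higher, 136 lower). Deviations of libraries with the same number correlated at -0.045 to 0.035, so the numbers were not taken as pairs, and 25 retinas were pooled for each replicate without a statement that the fractions shared a pool. Using only the libraries of the upper range of track numbers, an alternative chosen after seeing the data, gave 501 calls (295 higher, 206 lower), of which 342 were among the 600. Of 182 named genes that were called, 143 kept the call on leaving out each single library, 109 kept it in every alternative, and 0 reversed. The block lost 57 of them, the upper track range 49 and no filter 26. The difference in genes detected was -1863 to -837 on leaving out single libraries (exact permutation p from 0.103 to 0.389), -1844 at 10 counts (p = 0.143) and -1468 after thinning to equal depth (p = 0.198).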
